A study of Homo sapiens with 6 samples.

Results

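The 10 genes described here are transcription factors, a splicing regulator, cadherins and an intermediate filament that mark the transition between epithelial and mesenchymal cell states. They were taken by gene symbol from the deposited read counts: ZEB1, ZEB2, SNAI1, SNAI2, TWIST1, GRHL2, ESRP1, CDH1, CDH2 and VIM. Each symbol had exactly 1 row, so the set holds 10 of the 28265 genes in the tables. Of the 10, 7 passed a filter on low counts and were tested. CDH1, GRHL2 and TWIST1 did not pass it.

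Polyadenylated RNA was sequenced from cells of the established human line MDA-MB-231, a triple-negative breast cancer, and from its derivative MDA-MB-231GlnIND, which grows without added glutamine. The parental cells were cultured in glutamine-replete RPMI 1640 with 10% fetal bovine serum, and the GlnIND cells for over 6 weeks in RPMI 1640 lacking glutamine, with 10% dialyzed serum. Population, glutamine and serum therefore differed between the groups at once and cannot be told apart. Each group had 3 libraries with 18256219 to 24594248 total counts, and no label says whether separate cultures were used, so the p-values cover the spread between these libraries only.

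In an epithelial to mesenchymal transition, cells lose E-cadherin junctions and apical-basal polarity and gain vimentin filaments and motility. The ZEB, SNAIL and TWIST factors bind E-box motifs and repress epithelial genes such as CDH1, while GRHL2 maintains epithelial transcription and ESRP1 maintains epithelial splice forms. The miR-200 family represses ZEB1 and ZEB2, which in turn repress the miR-200 genes. MDA-MB-231 is widely used as a mesenchymal-like breast cancer line.

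The GlnIND libraries had more VIM, ZEB2, SNAI2 and ESRP1 RNA than the parental libraries and less ZEB1 RNA. The factors thus moved in both directions, and the gene with the largest fold change was the epithelial splicing regulator ESRP1, which remained at a low level. CDH1, GRHL2 and TWIST1 stayed at or near 0 in both groups. CDH2 and SNAI1 did not pass the test. Of the 7 tested genes, 4 were called higher and 1 was called lower by edgeR's quasi-likelihood test with Benjamini-Hochberg adjustment over all tested genes (adjusted p under 0.05). One of the 4, ESRP1, passed the low-count filter only because of its GlnIND counts, and without it 3 were called higher and 1 lower. Over all tested genes 56.3% were called in either direction, 28.4% higher and 27.9% lower, so calls were common for any gene in this comparison. The libraries hold RNA from many cells, so more cells expressing a gene and more RNA per cell cannot be told apart.

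**Figure D1:**
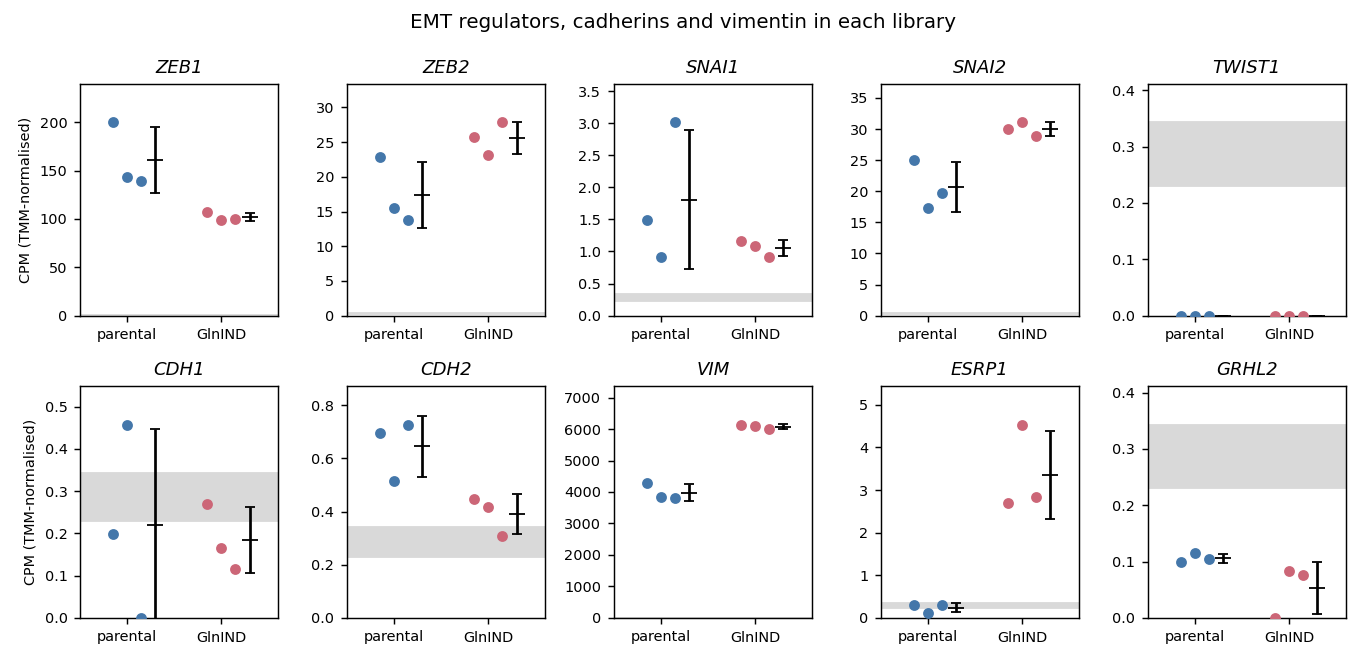
Library-size scaled counts (CPM, TMM-normalised, y axis from 0, scale set per gene) of the 10 genes in each parental (blue) and GlnIND (red) library, with mean ± SD beside the points and the range of detection floors shaded in grey. Among the tested genes, the groups do not overlap for VIM, ZEB1, ZEB2, SNAI2, ESRP1 and CDH2, and TWIST1 lies at 0 in every library.

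Levels are given as CPM, read counts scaled to library size with TMM factors. A log2 fold change is positive where GlnIND was higher, and SE is its standard error. Low counts were mostly even, so 3 read pairs, or 6 counts, were taken as the detection floor, which was 0.230 to 0.343 CPM per library. The GlnIND libraries lay close together, with a root mean square difference of 0.201 to 0.21 in log2 CPM between pairs. The parental library 1 stood further from parental 2 and 3 (0.361 and 0.388) than these did from each other (0.244), and differences between groups were 0.766 to 0.843.

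ZEB1, a zinc finger and homeodomain repressor of epithelial genes, had the highest level per length among the factors. It measured 200.03, 143 and 139 CPM in the parental libraries and 107, 99.3 and 99.6 CPM in the GlnIND libraries. Every GlnIND library lay below every parental library, and parental library 1 was the highest. ZEB1 fell by 0.66 in log2 units (SE 0.127, edgeR adjusted p = 0.00158), from a mean of 161 ± 34.0 CPM to 102 ± 4.22 CPM (SD, n = 3 each). Without parental library 1 the change was -0.48, and the gene was still called lower.

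ZEB2, its paralog, moved in the other direction. It measured 22.8, 15.4 and 13.8 CPM in the parental libraries and 25.7, 23.2 and 27.9 CPM in the GlnIND libraries. The groups did not overlap, but the highest parental library and the lowest GlnIND library were nearly equal. ZEB2 rose by 0.56 (SE 0.174, edgeR adjusted p = 0.0203). That call was lost without parental library 2 (0.46, adjusted p = 0.0863), parental library 3 (0.39, 0.0676), GlnIND library 1 (0.55, 0.0645) or GlnIND library 3 (0.48, 0.087). Without parental library 1 the change was 0.80 and remained called.

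The RNAs of ZEB1 and ZEB2 are textbook targets of the miR-200 family, whose mature forms are printed because both genes carry many matches to their seeds. The RefSeq sequences (GRCh38.p14) follow 5′ to 3′ with the seed, bases 2 to 8, in capitals, and fall into 2 seed groups.
hsa-miR-200b-3p: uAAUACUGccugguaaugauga
hsa-miR-200c-3p: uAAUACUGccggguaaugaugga
hsa-miR-429: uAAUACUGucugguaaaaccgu
hsa-miR-200a-3p: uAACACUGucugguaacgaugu
hsa-miR-141-3p: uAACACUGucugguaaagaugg

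The complements of these seeds, CAGTATT and CAGTGTT, were searched on the transcript strand of the 3′ UTR of 1 coding transcript per gene (GENCODE 29, GRCh38). The ZEB1 3′ UTR of 2549 bases held 6 matches to the first and 3 to the second. The ZEB2 3′ UTR of 5370 bases held 5 and 4. Among 12396 tested genes with a 3′ UTR, 29.6% held any match and 0.0403% held as many as these 9. The median 3′ UTR of those genes was 1049 bases, shorter than that of ZEB1 or ZEB2. The shares are not adjusted for length and include ZEB1 and ZEB2 themselves. Of the other 8 EMT genes, ESRP1 held 2 matches, SNAI2 and GRHL2 held 1 each, and the remaining 5 held none. A match is a description of the letters and not evidence of a bound site. As examples, 2 sites of each gene are given with the seed match in capitals, the first pair on the plus strand and the second pair on the minus strand.
ZEB1 chr10:31527613-31527640: ctggcattgttttatcttatCAGTATTa
ZEB1 chr10:31528026-31528053: gacagcaaaatcatcagaatCAGTGTTt
ZEB2 chr2:144389052-144389079: gtgcccgcactaccatacatCAGTATTt
ZEB2 chr2:144388710-144388737: ctgcaagtgccatccttgtaCAGTGTTa

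The ZEB transcripts, with 9 matches each, differed in the direction of their change, and a part of the miR-200 family in this was not tested. The rows for MIR200A, MIR200B, MIR200C, MIR141, MIR205, MIR205HG and MIR34A were at 0 in all 6 libraries, and MIR429 had 2 counts in the parental group. Poly(A) selected libraries do not measure mature miRNAs, so these rows give no level of the miRNAs. MIR34AHG, the host transcript of miR-34a, fell by 1.07 (SE 0.259, edgeR adjusted p = 0.00591), from 3.41 ± 0.715 to 1.64 ± 0.403 CPM (SD, n = 3 each), and was named after its value was seen.

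SNAI2 encodes SLUG, an E-box repressor of the SNAIL family. It measured 25.05, 17.3 and 19.6 CPM in the parental libraries and 30.0, 31.1 and 28.8 CPM in the GlnIND libraries. All GlnIND values lay above all parental values, and parental library 1 was again the highest of its group. SNAI2 rose by 0.53 (SE 0.132, edgeR adjusted p = 0.00638) and was called higher under all 16 alternatives to the processing.

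SNAI1, the founding member of that family, encodes SNAIL. It measured 1.49, 0.915 and 3.02 CPM in the parental libraries and 1.17, 1.08 and 0.921 CPM in the GlnIND libraries. The groups overlapped, with parental library 2 below every GlnIND library and parental library 3 far above them. The difference was -0.78 (SE 0.408, edgeR adjusted p = 0.128). Without parental library 1 or 2 it passed the threshold (-0.92, adjusted p = 0.0265, and -1.10, 0.0297), and without parental library 3 it was -0.23 (0.62).

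TWIST1, a basic helix-loop-helix factor, had 0 counts in all 6 libraries, which allows at most 0.230 to 0.343 CPM by the floor.

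The repression of epithelial genes by ZEB and SNAIL factors acts through the E-box CAGGTG, so this motif was searched in RefSeq promoter windows of 250 bases before each start (GRCh38.p14), on both strands (CAGGTG and CACCTG). The table held 11 windows for 4 of the genes, most of them of ZEB1. None was of CDH1, ESRP1 or GRHL2, so the epithelial genes of the set were not searched. The motif lay in 2 of the 11 windows, both of ZEB1, a share close to the 17.5% of 35116 windows of all genes. Most ZEB1 windows and all windows of VIM, ZEB2 and CDH2 held none. The ZEB1 window farthest upstream, chr10:31318167-31318416 on the plus strand, is shown with its E-box in capitals.
ZEB1 promoter: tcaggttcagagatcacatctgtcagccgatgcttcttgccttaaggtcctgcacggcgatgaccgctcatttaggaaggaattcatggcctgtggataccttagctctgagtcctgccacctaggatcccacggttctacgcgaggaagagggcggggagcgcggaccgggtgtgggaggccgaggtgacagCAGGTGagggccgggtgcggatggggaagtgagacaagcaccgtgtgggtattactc

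ESRP1, an RNA-binding protein that sets epithelial splice forms, had 6, 2 and 6 counts in the parental libraries and 60, 109 and 74 counts in the GlnIND libraries. These counts correspond to 0.298, 0.114 and 0.312 CPM against 2.69, 4.54 and 2.84 CPM. Every parental library was at or below the floor of 6 counts, and every GlnIND library was well above it. ESRP1 passed the low-count filter through the GlnIND group alone, which fixed its direction. It rose by 3.74 (SE 0.398, edgeR adjusted p = 4.25e-05), and a ratio of counts scaled to library size gave 13.6 (95% interval 6.45 to 34.8, counting error only). Only 1.78% of tested genes had a larger absolute log2 fold change.

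The 40 tested genes nearest to ESRP1 on the chromosome, 20 on each side, had a median log2 fold change of -0.58, with 31 called lower and 2 called higher. The change of ESRP1 was 4.32 after that median was subtracted. Its direction was fixed by the low-count filter, so the contrast with the neighbours is not a separate result. ESRP2, its paralog with a related role in epithelial splicing, went the other way. It fell by 2.35 (SE 0.243, edgeR adjusted p = 3.67e-05), from 6.14 ± 1.55 to 1.19 ± 0.177 CPM (SD, n = 3 each).

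GRHL2, a grainyhead factor that maintains epithelial transcription, had 2, 2 and 2 counts in the parental libraries and 0, 2 and 2 in the GlnIND libraries. The groups did not overlap in CPM, but all 6 values were below the floor, so no difference was detectable at this depth. ESRP1 and GRHL2 lie on the same chromosome and share 8 of their 40 neighbours.

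**Figure D2:**
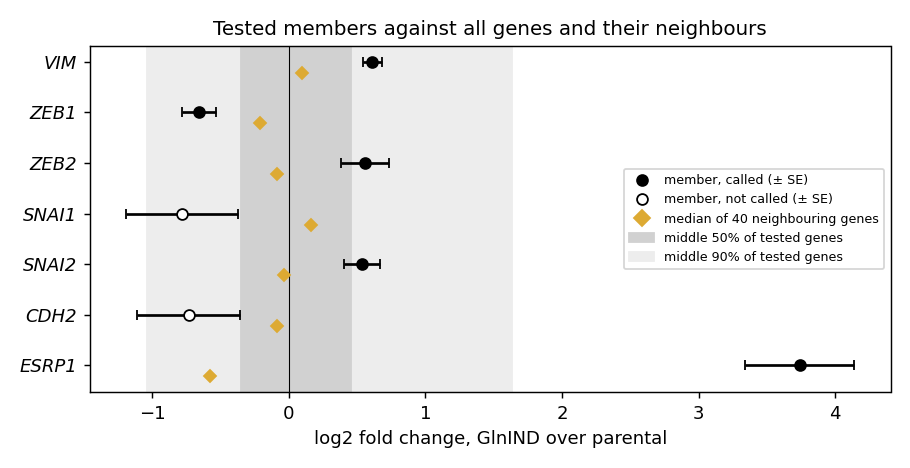
Log2 fold change (x axis, GlnIND over parental) with its SE for the 7 tested genes, filled where called, with the median of each gene's 40 chromosomal neighbours as diamonds and the middle 50% and 90% of all tested genes shaded. ESRP1 lies at 3.74, outside the shaded bands, while the other 6 genes lie between -0.78 and 0.61.

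CDH1 encodes E-cadherin, the adhesion molecule of epithelial junctions. It had 4, 8 and 0 counts in the parental libraries and 6, 4 and 3 counts in the GlnIND libraries. Only parental library 2 exceeded the floor, the groups overlapped, and the gene was not tested. The ratio of scaled counts, parental over GlnIND, was 1.17 (95% interval 0.340 to 4.76, counting error only). The interval covers both directions.

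CDH2 encodes N-cadherin, the cadherin gained in many mesenchymal cells. It had 14, 9 and 14 counts in the parental libraries and 10, 10 and 8 in the GlnIND libraries, or 0.694, 0.515 and 0.728 against 0.448, 0.416 and 0.307 CPM. All GlnIND values lay below all parental values, yet they were close to the floor. The difference of -0.73 (SE 0.377, edgeR adjusted p = 0.124) did not pass the test in any of the 15 alternatives that kept the gene.

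VIM encodes vimentin, the intermediate filament protein of mesenchymal cells. It measured 4292, 3825 and 3818 CPM in the parental libraries and 6143, 6087 and 6001 CPM in the GlnIND libraries. The groups were far apart relative to their spread, from 3979 ± 272 CPM to 6077 ± 71.6 CPM (SD, n = 3 each). VIM rose by 0.61 (SE 0.0670, edgeR adjusted p = 5.16e-05). Its reads were 0.366% to 0.398% of all counts in the parental libraries, where it ranked 7 or 8 among genes, and 0.636% to 0.644% in the GlnIND libraries, where it ranked 1 or 2.

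The VIM row overlaps an antisense gene, VIM-AS1, over 641 exon bases (12.4% of the exon length of VIM), and whether counting used the strand is not given in the sources used here. VIM-AS1 rose by 0.63 (SE 0.116, edgeR adjusted p = 0.00124), a change close to that of VIM, with 502 parental and 989 GlnIND counts. Without strand, reads of the pair cannot be told apart, but VIM had 226866 and 439620 counts. ZEB1-AS1, which overlaps 4.23% of the exon bases of ZEB1, differed by -0.10 (SE 0.164, edgeR adjusted p = 0.644), a value that turned positive with library totals as scaling (0.06) and after the neighbour median was subtracted (0.11). ZEB2-AS1 had 0 parental counts and 1 GlnIND count.

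The 10 genes were ordered by level per length, as CPM per kilobase of 1 coding transcript. In the parental group VIM led with 2130 ± 145 (SD, n = 3 for each level), followed by ZEB1 with 26.9 ± 5.68, SNAI2 with 8.51 ± 1.64, ZEB2 with 1.812 ± 0.4999 and SNAI1 with 1.07 ± 0.644. Of these neighbours in the order, ZEB2 and SNAI1 had overlapping ranges, and the other steps exceeded the spread. CDH2 (0.149 ± 0.0264), ESRP1 (0.0638 ± 0.0291), CDH1 (0.0448 ± 0.0470) and GRHL2 (0.0202 ± 0.00149) came next, with TWIST1 at 0. The ranges of ESRP1 and CDH1 overlapped, as did those of CDH1 and GRHL2, and these values rest on few reads.

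In the GlnIND group the first 4 places were the same, with VIM at 3253 ± 38.3, ZEB1 at 17.0 ± 0.704, SNAI2 at 12.4 ± 0.466 and ZEB2 at 2.67 ± 0.245. ESRP1 took the fifth place at 0.887 ± 0.271, above SNAI1 at 0.627 ± 0.0738 and CDH2 at 0.0902 ± 0.0171. The ranges of ESRP1 (0.711 to 1.199) and SNAI1 (0.546 to 0.692) did not overlap. The gap between ZEB1 and ZEB2 per kilobase was smaller than in the parental group, as ZEB1 fell and ZEB2 rose. Lengths of all exons of a gene in place of 1 transcript put ZEB2 below SNAI1 in the parental group.

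Against all tested genes the changes other than that of ESRP1 were of ordinary size. The median absolute log2 fold change over all tested genes was 0.403. A larger absolute change was seen in 23.4% of tested genes for SNAI1, 25.7% for CDH2, 30.0% for ZEB1, 32.9% for VIM, 36.5% for ZEB2 and 38.3% for SNAI2. The median over the 7 tested genes was 0.53, against 0.03 over all tested genes. CPM ranges did not overlap for 6 of the 7, against 65.0% of all tested genes. Both values include ESRP1, whose direction was fixed by the low-count filter. The other changes ranged from -0.78 to 0.61, with SNAI1, CDH2 and ZEB1 negative and SNAI2, ZEB2 and VIM positive. Negative and positive changes were thus equal in number without ESRP1, so the median of 0.53 rests on that gene.

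Neighbours on the chromosome had smaller median changes than the tested genes themselves. The median log2 fold change of the 40 nearest tested genes was 0.09 for VIM, -0.21 for ZEB1, -0.09 for ZEB2, 0.16 for SNAI1, -0.04 for SNAI2 and -0.09 for CDH2. Of these, the ZEB1 region shifted most in the direction of its gene, and ZEB1 differed by -0.45 (edgeR adjusted p = 0.0148) once its median was subtracted. The medians around the untested CDH1, TWIST1 and GRHL2 were 0.01, -0.35 and -0.19.

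**Figure D3:**
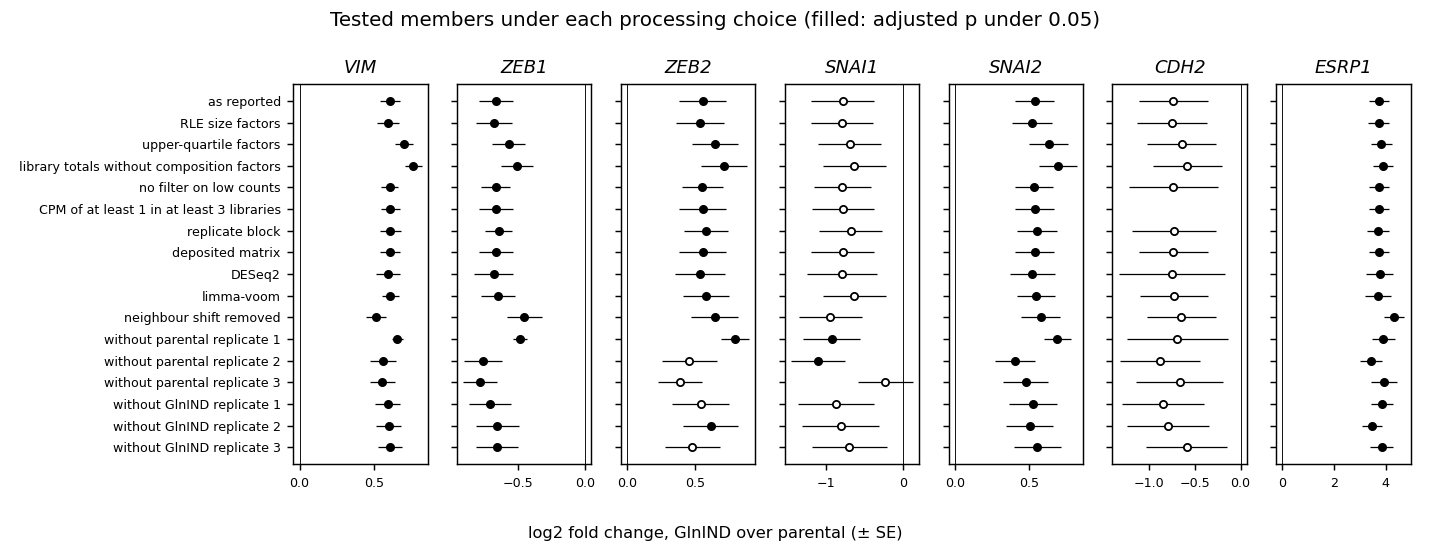
Log2 fold change with its SE (x axis, scale set per gene) of the 7 tested genes as reported and under 16 alternatives (rows), filled where the adjusted p was under 0.05. VIM, ZEB1, SNAI2 and ESRP1 are filled in every row, ZEB2 is open in 4 rows that leave out a library, and SNAI1 is filled in 2 such rows.

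The profile over the 6 libraries was also compared between genes, as the root mean square difference of log2 CPM centred on each gene's mean, over 10591 candidates with a mean of at least 5 CPM. This was done for the 3 genes with the highest mean CPM. FOXN3 (0.0207) and MARF1 (0.0216) were closest to VIM, MTIF3 (0.0173) and PABPC1 (0.0325) to ZEB1, and ZNF33B (0.0476) and ZNF320 (0.0605) to SNAI2. The measure covers 6 libraries in 2 groups and therefore mostly reflects the size of the group difference. MTIF3 is the exception to a stable call among these, since its change of -0.68 was -0.24 (edgeR adjusted p = 0.205) with its neighbour median subtracted.

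Among 16 other transcription factors with a known part in the transition, 11 were tested, 3 were called higher, 3 lower and 5 neither, with a median of -0.12. Calls thus covered 54.5% of them, close to the 56.3% of all tested genes. KLF8, a Krüppel-like repressor of CDH1, rose by 3.30 (SE 0.223, edgeR adjusted p = 2.46e-06), from 0.632 ± 0.0840 to 6.28 ± 0.779 CPM (SD, n = 3 each). SOX9, a factor that cooperates with SLUG in mammary cells, fell by 0.66 (SE 0.110, edgeR adjusted p = 0.00064), from 141 ± 24.3 to 89.0 ± 2.07 CPM. FOXQ1 and TCF12 were also higher (0.36 and 0.28), and FOXC1 and TCF3 lower (-0.44 and -0.30). The calls of FOXC1 and TCF3 were lost with library totals as scaling (-0.29 and -0.15) and after the neighbour median was subtracted (-0.22 and -0.13). TCF3 also lost its call with upper-quartile factors (-0.21). TWIST2, PRRX2 and GSC were at 0 in all libraries, like TWIST1.

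Corepressors, stability factors and inhibitors of the EMT factors formed a list of 22 genes. Of 20 tested, 4 were called higher, 7 lower and 9 neither, with a median of -0.24. The share called in either direction was 55%, close to the 56.3% of all tested genes. Library totals as scaling gave 7 higher and 6 lower, so the balance of directions depended on the scaling. ID4 and ID2 belong to the ID proteins, which bind helix-loop-helix factors and keep them from DNA. ID4 fell by 3.43 (SE 0.126, edgeR adjusted p = 7.21e-08), from 49.7 ± 5.17 to 4.63 ± 0.512 CPM (SD, n = 3 each), and ID2 by 1.202 (SE 0.317, adjusted p = 0.00919), from 1.80 ± 0.493 to 0.775 ± 0.168 CPM. ID1 rose by 0.91 (SE 0.106, edgeR adjusted p = 7.48e-05), so the ID genes did not move one way.

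USP27X, a deubiquitinase that stabilises SNAIL, was higher at 1.08 (SE 0.203, edgeR adjusted p = 0.0014), or 0.60 with the neighbour median subtracted. GSK3B, the kinase that marks SNAIL for degradation, was also higher (0.45, SE 0.0642, edgeR adjusted p = 0.000284). SUV39H1, a histone methyltransferase recruited by SNAIL, completed the 4 that were called higher (0.52). Its value was -0.000597 once its neighbour median of 0.52 was subtracted, its call was lost without GlnIND library 2 (0.49, adjusted p = 0.0541), and it was 0.34 without parental library 1. HDAC2, a histone deacetylase and the gene with the highest CPM of the list, fell by 0.42 (SE 0.0701, edgeR adjusted p = 0.00071), or -0.26 with library totals as scaling. LOXL2, KDM1A, CTBP2 and EZH2, which also serve these repressors, were also called lower, at -0.63, -0.40, -0.37 and -0.24. KDM1A was at -0.25 and CTBP2 at -0.22 with library totals, and KDM1A at -0.19 with the neighbour median subtracted. The call of EZH2 was lost with upper-quartile factors (-0.15), with library totals (-0.08), with the neighbour median subtracted (0.06) and without GlnIND library 1, 2 or 3 (-0.25, -0.23 and -0.26). EZH2 was at -0.14 and still called without parental library 1.

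Of 16 epithelial transcription and splicing regulators other than GRHL2 and ESRP1, 11 were tested. TFAP2C was called higher (0.47, or 0.29 with the neighbour median subtracted), 4 were called lower and 6 neither, with a median of -0.29. In either direction 45.5% were called, against 56.3% of all tested genes. EHF, an epithelial ETS factor, fell by 2.69 (SE 0.0872, edgeR adjusted p = 4.11e-08), from 192 ± 13.9 to 29.9 ± 2.36 CPM (SD, n = 3 each). GRHL1, a paralog of GRHL2, fell by 2.35 (SE 0.310, edgeR adjusted p = 0.00016), from 2.57 ± 0.508 to 0.504 ± 0.137 CPM. FOXA1 was lower by a difference of -0.85, and ESRP2 is described above. OVOL1 and ELF5 were at 0 in all libraries, and OVOL2 had 2 counts in all.

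The other splicing factors on the list, known for splicing changes in the transition, were all 8 tested. Of these 6 were called lower and 1 higher, with a median of -0.36, against 27.9% called lower over all tested genes. CELF1 fell by 0.82 (SE 0.0569, edgeR adjusted p = 2.92e-06), QKI by 0.71 (SE 0.109, adjusted p = 0.000398) and MBNL2 by 0.79 (SE 0.0764, adjusted p = 2.46e-05). MBNL2 differed by -0.23 with its neighbour median subtracted. SRSF1 fell by 0.32, with -0.17 for library totals as scaling and -0.55 with the neighbour median subtracted. RBFOX2 was called higher (0.24), a call that was lost with the neighbour median subtracted (0.02).

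**Figure D4:**
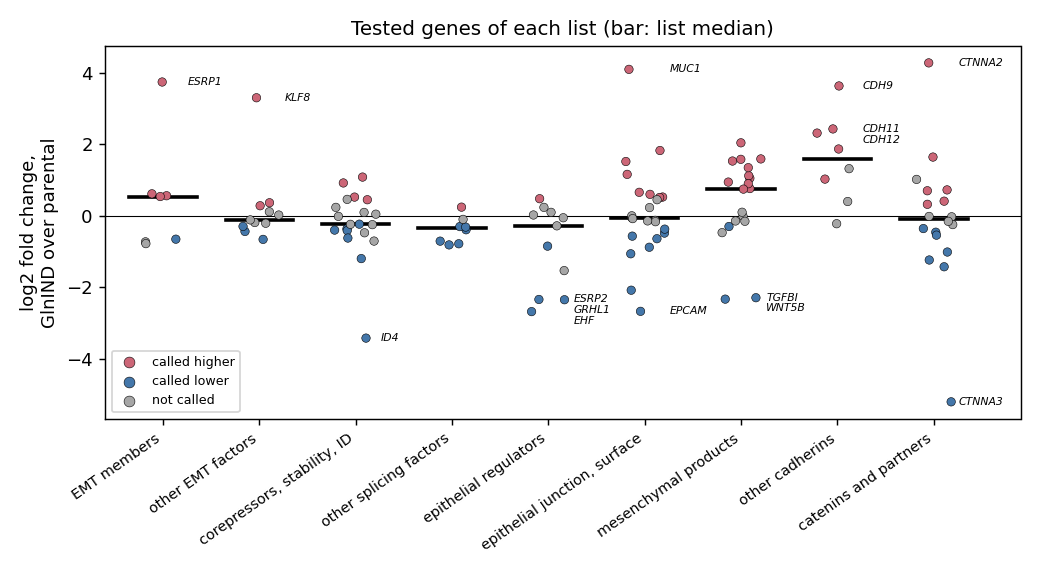
Log2 fold change (y axis, GlnIND over parental) of the tested genes in each list (x axis), coloured by call, with the list median as a bar and genes beyond 2.2 on either side named. The medians of the EMT genes (0.53), mesenchymal products (0.76) and other cadherins (1.59) lie above 0, and the other lists have medians between -0.36 and -0.07. ESRP1 among the EMT genes and CDH9 among the other cadherins passed the low-count filter through the GlnIND group alone, as did MUC1 and CTNNA2. CTNNA3 passed it through the parental group alone. Without ESRP1, as many tested EMT genes were negative as positive.

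Junction and surface genes of epithelial cells moved in both directions. Of 34 genes 24 were tested, with 8 called higher, 8 lower and 8 neither, and a median of -0.07. Without MUC1, described below, 7 were called higher. For comparison, 28.4% of all tested genes were called higher and 27.9% lower. EPCAM, an epithelial adhesion molecule, fell by 2.68 (SE 0.190, edgeR adjusted p = 3.26e-06), from 14.3 ± 2.62 to 2.22 ± 0.366 CPM (SD, n = 3 each). CLDN4, a tight junction claudin, fell by 2.09 (SE 0.223, edgeR adjusted p = 4.44e-05), from 24.7 ± 7.59 to 5.80 ± 0.469 CPM. MUC1, a transmembrane mucin, rose from 6 to 136 counts over the group, a ratio of 17.8 (95% interval 5.84 to 88.5, counting error only), and was called higher (edgeR adjusted p = 0.000588). It passed the low-count filter through the GlnIND group alone, which fixed its direction. Its 6 parental counts lay in 1 library, so its fitted log2 fold change of 4.10 became 8.37 without parental library 1. SPINT2, a protease inhibitor with the highest CPM of the list, rose by 0.65 (SE 0.124, edgeR adjusted p = 0.00147), or 0.33 with the neighbour median subtracted.

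Luminal breast markers had a lower summed level in the GlnIND libraries, with 515 to 607 CPM in the parental and 245 to 262 CPM in the GlnIND libraries. Of 7 markers 5 were tested, of which 3 were called lower and 1 higher. Among all tested genes 27.9% were called lower and 28.4% higher. KRT8 and KRT18, the keratins of simple epithelia, fell by 1.12 and 1.45 (edgeR adjusted p = 2.11e-06 and 2.04e-06). They made up most of the sum, with means of 266 and 284 CPM in the parental and 123 and 104 CPM in the GlnIND libraries. FOXA1 was the third called lower (-0.85). ERBB3 was called higher (1.04, edgeR adjusted p = 9.37e-05), and GATA3 was not called (0.02). The defining receptors ESR1 and PGR had at most 14 counts in a group. The part of this difference in the values of ESRP1 and the other epithelial genes was not tested.

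Of 24 mesenchymal products other than VIM 19 were tested, with 11 called higher, 3 lower and 5 neither, and a median of 0.76. Over all tested genes 28.4% were called higher and the median was 0.03. AXL, a receptor tyrosine kinase with the highest CPM of the list, rose by 0.76 (SE 0.0719, edgeR adjusted p = 2.13e-05), or 0.34 with the neighbour median subtracted. WNT5A, a non-canonical Wnt ligand, rose by 2.04 (SE 0.106, edgeR adjusted p = 5.33e-07), while its paralog WNT5B fell by 2.34 (SE 0.148, edgeR adjusted p = 1.79e-06). TGFBI, a matrix protein induced by TGF-beta, fell by 2.298 (SE 0.0931, edgeR adjusted p = 1.32e-07), from 77.3 ± 5.40 to 15.7 ± 1.13 CPM (SD, n = 3 each). FN1, the matrix protein fibronectin, rose by 1.53 (SE 0.0876, edgeR adjusted p = 9.84e-07) and was named after its value was seen. CD44, the third gene called lower (-0.30), lost its call with library totals as scaling (-0.15) and after the neighbour median was subtracted (-0.02).

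Some fibroblast markers were higher alongside this list. The summed level of 7 such markers was 5.03 to 7.49 CPM in the parental and 17.4 to 19.9 CPM in the GlnIND libraries. While 28.4% of all tested genes were called higher, the 3 markers that passed the low-count filter all were. Of these, LUM passed it through the GlnIND group alone, so its direction was fixed by the filter, and the other 4 markers were not tested. COL1A1, the largest part of the sum, rose by 1.29, PDGFRB rose by 1.52, and LUM went from 0 to 172 counts over the group. DCN, a defining fibroblast marker, had 3 parental and 0 GlnIND counts, COL3A1 had 0 and 24, and PDGFRA had 2 and 20. COL1A2 had 10 parental and 12 GlnIND counts, with all 12 in GlnIND library 2. The 5 blood markers summed to at most 0.728 CPM in any library, and the groups overlapped. The sums of the 5 endothelial markers also overlapped, at 9.51 to 12.1 and 11.9 to 12.4 CPM, with PECAM1 higher (0.85, or 0.56 with the neighbour median subtracted), KDR not called (-0.19) and VWF at 6 and 2 counts. The part of the fibroblast markers in the changes of VIM, ZEB2 and SNAI2 was not tested. All 7 markers of mesenchymal-like (basal B) breast lines, VIM among them, were detected in both groups. VIM, AXL and EGFR were called higher, CD44, CAV1 and CAV2 lower and MSN neither, with a median of 0.09. Their sum was 7983 to 8686 CPM in the parental and 10914 to 11079 CPM in the GlnIND libraries, and VIM is the largest part of it. After the neighbour median was subtracted, CAV1 turned from -0.50 to 0.25 and the call of CAV2 was lost (-0.78 to -0.06).

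Other cadherins were the list with the highest median, 1.59. That median includes CDH9, whose direction was fixed by the low-count filter. Of 25 genes 8 were tested, 5 were called higher, 0 lower and 3 neither, and 13 were at or under the floor in every library. Without CDH9, 4 were called higher, and over all tested genes 28.4% were. CDH11, a mesenchymal and osteoblast cadherin, measured 28.5 ± 3.41 CPM in the parental and 154 ± 7.62 CPM in the GlnIND libraries (SD, n = 3 each). It rose by 2.43 (SE 0.0949, edgeR adjusted p = 1.06e-07). CDH12 rose by 2.31 (SE 0.192, edgeR adjusted p = 9.14e-06), from 2.14 ± 0.448 to 10.6 ± 1.35 CPM. CDH9 went from 6 to 99 counts over the group, a ratio of 13.0 (95% interval 4.23 to 65.6, counting error only), and was called higher (edgeR adjusted p = 0.000593). It passed the low-count filter through the GlnIND group alone, as no parental library reached the minimum. CDH18 and CDH24 were the other 2 called higher, and in 4 of the 5 at least 1 parental library reached that minimum. Their changes were 1.87 and 1.02. CDH9, CDH12 and CDH18 lie on chromosome 5, as does CDH10, which was tested and not called. The list median therefore rests in part on genes of 1 chromosome. The neighbour medians were 0.52 for CDH9, CDH10 and CDH12, 0.56 for CDH18 and 0.21 for CDH11. CDH9, CDH11, CDH12 and CDH18 remained called after their subtraction.

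CDH4, or R-cadherin, measured 104 ± 13.7 CPM in the parental libraries against 88.5 ± 3.43 CPM in the GlnIND libraries (SD, n = 3 each). Its difference of -0.23 (SE 0.0962, edgeR adjusted p = 0.0699) did not pass the test. It passed with RLE factors (-0.24, adjusted p = 0.0492), with DESeq2 (-0.24, 0.0484), after the neighbour median was subtracted (-0.31, 0.0239) and without parental library 1 (-0.34, 3.68e-07). With library totals as scaling it was -0.07 (0.552), and with upper-quartile factors -0.14 (0.268). CDH3, or P-cadherin, was not tested, with 2 parental and 27 GlnIND counts (ratio 10.6, 95% interval 1.67 to 465). CDH13 had 10 and 2 counts (parental over GlnIND 6.36, 95% interval 0.712 to 301), and its interval covers both directions.

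**Figure D5:**
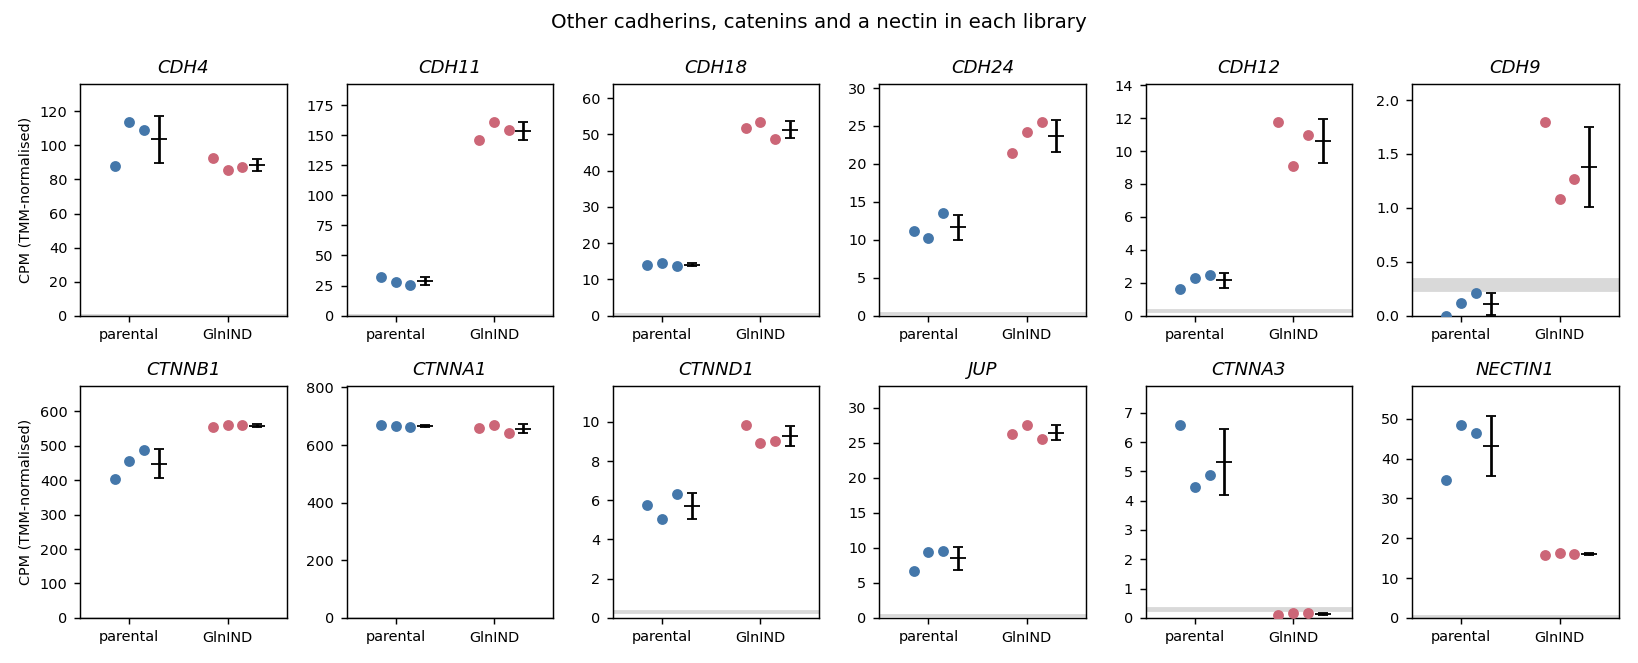
CPM (TMM-normalised, y axis from 0, scale set per gene) of 6 other cadherins, 5 catenins and NECTIN1 in each parental (blue) and GlnIND (red) library, with mean ± SD beside the points and the detection floors in grey. CDH11, CDH12, CDH18, CDH24 and CDH9 are higher in every GlnIND library than in any parental library, and CTNNA1 lies at nearly the same level in both groups.

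Catenins link cadherins to actin and, with their other partners, formed a list of 20 genes. Of 18 tested, 6 were called higher, 7 lower and 5 neither, with a median of -0.10. Without CTNNA2 and CTNNA3, described below, 5 were called higher and 6 lower. The shares over all tested genes were 28.4% higher and 27.9% lower. CTNNA1, the alpha-catenin of most epithelia, with the highest CPM of the list, measured 667 ± 4.16 and 657 ± 15.3 CPM (SD, n = 3 each). It differed by -0.02 (SE 0.0558, edgeR adjusted p = 0.754), with a sign that turned under upper-quartile factors (0.07) and library totals (0.13). CTNNA3, an alpha-catenin of heart and testis, went from 305 to 10 counts over the group, a ratio of 38.8 (95% interval 16.2 to 121, counting error only). It was called lower (edgeR adjusted p = 1.91e-06) after passing the low-count filter through the parental group alone, and its GlnIND libraries averaged 0.137 CPM, below the floor. CTNNA2, the neural alpha-catenin, went from 2 to 57 counts (ratio 22.4, 95% interval 3.64 to 899.5), passed the filter through the GlnIND group alone and was named after its value was seen.

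JUP, or plakoglobin, rose by 1.64 (SE 0.141, edgeR adjusted p = 1.15e-05), from 8.51 ± 1.62 to 26.5 ± 1.05 CPM (SD, n = 3 each). CTNNB1, or beta-catenin, was called higher at 0.32 (SE 0.0751, edgeR adjusted p = 0.00519), from 448 ± 42.7 to 558 ± 4.32 CPM. Its 40 neighbours had a median of 0.43, and with that subtracted CTNNB1 was at -0.11 (adjusted p = 0.257) and no longer called. CTNND1, or p120-catenin, was called higher at 0.70 (SE 0.139, edgeR adjusted p = 0.00199), or 0.41 with the neighbour median subtracted. A read-through row, TMX2-CTNND1, shares exons with it and was at 0, so its level of 5.71 and 9.28 CPM is uncertain. NECTIN1, an adhesion molecule of adherens junctions, fell by 1.43 (SE 0.129, edgeR adjusted p = 1.58e-05), or -0.56 with its neighbour median of -0.87 subtracted.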

How the data were processed

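The deposited values are raw counts for each gene symbol, in 1 table per library and 1 matrix of all 6. FastQC, STAR, featureCounts, DESeq and the build hg19 are named in the submitters' processing notes. Their versions, the gene models, the strand setting and how multiply mapped reads were handled are not given in the sources used here. Matrix and tables held the same values, with the names of replicates 1 and 3 exchanged within each group, and replicate numbers follow the tables. The coordinates and sequences printed here are from GRCh38 references and not from the deposited files.

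Testing used edgeR 4.0.16 (R 4.3.3) on the unaltered counts, with glmQLFit, glmQLFTest (two-sided), TMM factors and filterByExpr (a minimum count of 10 and a minimum total of 15), and group was the only term. The 13949 tested genes held 99.94% of counts, with a common biological coefficient of variation of 9.79%. A gene was called at a Benjamini-Hochberg adjusted p under 0.05. Of all tested genes 3965 were called higher and 3888 lower. Library totals without composition factors gave 5356 higher and 2810 lower and moved the median log2 fold change from 0.03 to 0.18, and upper-quartile factors moved it to 0.12. Permuting 3 against 3 libraries gives no p under 0.1. The script was tested on simulated data.

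Under 20 counts, 60.6% to 65.0% of genes had an even count, against 49.8% to 51.2% over 1000 counts. Floors were therefore set at 3 read pairs (6 counts), and 95% Clopper-Pearson intervals of ratios were computed on halved counts. Floors and intervals cover counting error only.

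The members and lists were chosen with earlier results of these data known. Named were all 10 genes and, from each list that is not a marker, miRNA or antisense list, the 3 called genes with the largest change and a mean of at least 1 CPM in the higher group, plus the gene with the highest mean CPM. CTNNB1, CTNNA1, CTNND1, JUP, CDH3, CDH4, CDH11 and CDH13 were named whatever their result. For likeness, the 2 closest genes of each of 3 members were named. Others are named where a count needed them, chosen after their values were seen. The neighbour order came from the RefSeq table of GRCh38.p14. Antisense rows existed for 3 of the 10 genes. The replicate numbers did not pair the libraries. Alternatives were RLE and upper-quartile factors, library totals, no low-count filter, a minimum of 1 CPM in 3 libraries, a replicate block, the matrix, DESeq2 1.42.0, limma-voom (limma 3.58.1), the subtraction of the median of 40 neighbours, and each library left out.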

Additional observations from a re-analysis of the deposited data

How the results depend on the processing

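Of 76 named genes that were tested, 61 kept their call and direction under every alternative that gave a value, which was 16 for most genes and 15 for CDH2 and CTNNA2. ERBB3, GATA3 and MSN were not checked in this way. Among the 7 tested EMT genes the number called higher ranged from 3 to 4 and the number called lower from 1 to 2 when single libraries were left out, with 2 called lower without parental library 1 or 2. With the replicate block 4 were called higher and 1 lower, as reported, and 3719 and 3584 of all tested genes were. Same-numbered libraries did not deviate together (r = -0.0629, 0.0299 and -0.0370), so the numbers pair nothing. The direction turned for CTNNA1 with upper-quartile factors (0.0692) and library totals (0.13), for ZEB1-AS1 with library totals (0.0594), and after subtraction of the neighbour median for CTNNB1 (-0.109), ZEB1-AS1 (0.114), SUV39H1 (-0.000597), EZH2 (0.058) and CAV1 (0.248). The cause was not tested. Depth limits CDH1, GRHL2, TWIST1 and the parental level of ESRP1, all at or near the floor of 6 counts.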
